A study of Mus musculus with 6 samples.

Results

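The enzymes that act after the deaminase AID in somatic hypermutation were followed in mouse lung B cells through 7 genes, Polh, Ung, Msh6, Exo1, Apex1, Apex2 and Pms2. They were picked by gene symbol, each as the transcript with the highest mean value over 6 libraries, and all 7 of 7 were found among the 21774 mRNA genes of the deposited table. All 7 also passed the filter on low values, which left 15759 genes. B cells had been drawn from dissociated lung with B220 microbeads, in 3 control libraries and 3 libraries of severe asthma, from mice of genotype WT in both groups, and strain and age are not given in the sources used here. Mice of the severe asthma group were sensitized through the trachea with LPS (10 μg) plus HDM, the house dust mite allergen (25 μg), dissolved in PBS (35 μl), daily on days 0 to 2. They were then challenged through the airway with HDM (25 μg) on 8 days, 7 to 14. The controls were given only PBS, through the trachea. The comparison of severe asthma with control asks how the repair side of hypermutation stood in lung B cells, in a study of the lymphoid tissue that forms in inflamed airways.

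Somatic hypermutation changes the variable regions of antibody genes in germinal centre B cells, where AID turns cytosine into uracil. Uracil-DNA glycosylase (Ung) takes the uracil out, and an abasic-site endonuclease (Apex1 or Apex2) can then cut the strand. On the other route, a mismatch receptor with Msh6 binds the uracil-guanine pair, Exo1 digests the strand around it, and DNA polymerase eta (Polh) fills the gap with errors at A and T bases. Pms2 is the endonuclease subunit of the mismatch repair complex MutL alpha. The same enzymes serve accurate repair and replication in other dividing cells.

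Values are the authors' library-size-adjusted read counts (SD over n = 3 libraries). Fold changes are severe asthma over control on the log2(value + 1) scale. Each adjusted p comes, unless another tool is named, from limma after the Benjamini-Hochberg procedure over all 15759 genes, and 0.05 was the threshold. The libraries held 16498219 to 18054903 reads over the mRNA genes. Whether each library stands for its own mice is not stated, so a p-value here covers the spread among libraries, which may be technical. B cell markers were abundant in both groups: the summed level of 10 markers ran from 133100 to 188600 in control and from 183900 to 200700 in severe asthma. Of these 10, 2 rose and 0 fell, and the count that rose was 1 without control 1 and 0 without control 3, without any 1 severe asthma library, and with no filter, total reads alone, edgeR, limma-voom or limma that is not robust. RNA of other cells was present too. The summed level of 14 macrophage and monocyte markers ran from 12000 to 26750 in control and from 95300 to 150600 in severe asthma (10 rose, 0 fell; 4 rose without both libraries numbered 1), and that of 8 endothelial markers from 15770 to 42500 and from 5273 to 8042 (0 rose, 8 fell). The endothelial count that fell was 1 without severe asthma 2 or 3, 3 without control 1 and 0 with no filter on low values. Plasmacytoid dendritic cells, which also carry B220, had 4 markers with sums of 968 to 1045 and 1528 to 2066 (2 rose, 0 fell). Sums of 8 epithelial markers ran from 23250 to 64980 in control and from 4510 to 9719 in severe asthma (0 rose, 7 fell). Those of 8 fibroblast markers ran from 4808 to 17360 and from 1024 to 2510 (0 rose, 4 fell). Under the alternative settings, 3 to 8 epithelial and 0 to 8 fibroblast markers fell. For 9 T cell markers the sums were 1254 to 1630 and 1499 to 1668 (1 rose, 1 fell). For 8 neutrophil markers they were 322 to 462 and 440 to 488 (2 rose, 1 fell). No marker was at 0. The part of this mixture in the results was not tested, and in bulk libraries fewer cells of a type and less RNA per cell cannot be told apart.

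Of the 7 genes, 5 rose in severe asthma, 0 fell, and Msh6 and Apex2 did not pass the test. Over all genes tested, 20.7% rose and 14.4% fell. Of all calls 59.0% were rises, and this share was 38.2% with total reads alone, 48.3% with edgeR and RLE factors and 46.2% with DESeq2. Exo1 and Polh had the largest fold changes of the 7, with Ung next and Apex1 and Pms2 below them. The median log2 fold change of the 7 was 0.45, against 0.06 for all genes tested. The groups did not overlap for 5 of the 7, where 31.6% of all genes tested lay wholly higher in severe asthma and 21.6% wholly lower. Of the 5 calls, that of Polh held under all 19 alternative settings tried, while each of the others was lost under some, as given beside each gene.

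**Figure D1:**
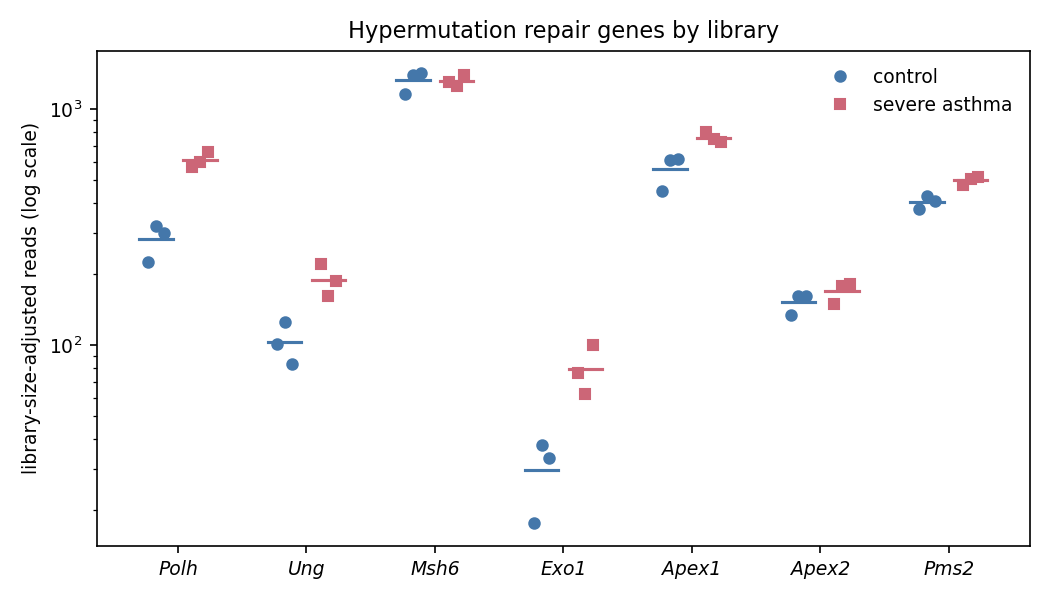
Library-size-adjusted reads of the 7 genes (vertical axis, log scale) in the 3 control libraries (blue circles) and the 3 severe asthma libraries (red squares), with a bar at each group's mean. The groups are apart for Polh, Ung, Exo1, Apex1 and Pms2 and overlap for Msh6 and Apex2.

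The promoters of Polh, which had the largest fold change of the 5 genes with a promoter in the table, and of Msh6, which had the smallest, are shown side by side. Each is 300 bases long, from 250 before to 50 after the RefSeq gene start (GRCm38.p6, the build also called mm10), at chr17:46202592-46202891 on the minus strand for Polh and chr17:87974800-87975099 on the plus strand for Msh6. Capitals mark, on either strand, the GC box GGGCGG, the sequence CCAAT and the E2F forms, which are TTTCCCGC and its variants TTTGGCGC or TTTGCCGC or TTTCGCGC, and neighbouring GGGCGG matches may share bases.
Polh: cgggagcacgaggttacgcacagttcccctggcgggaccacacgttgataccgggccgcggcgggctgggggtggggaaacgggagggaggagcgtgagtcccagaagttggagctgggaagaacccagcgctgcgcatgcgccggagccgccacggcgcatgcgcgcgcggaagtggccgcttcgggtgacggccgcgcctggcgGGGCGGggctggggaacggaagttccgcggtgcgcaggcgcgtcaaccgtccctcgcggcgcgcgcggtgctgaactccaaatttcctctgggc
Msh6: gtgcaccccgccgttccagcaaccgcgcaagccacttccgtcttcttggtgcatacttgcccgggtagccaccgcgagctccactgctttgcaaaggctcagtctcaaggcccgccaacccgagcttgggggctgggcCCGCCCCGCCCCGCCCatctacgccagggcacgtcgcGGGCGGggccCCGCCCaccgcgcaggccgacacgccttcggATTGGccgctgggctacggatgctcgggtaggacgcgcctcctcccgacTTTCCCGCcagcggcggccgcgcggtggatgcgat
Of the 5 genes with a promoter in the table (Polh, Ung, Msh6, Apex1 and Pms2), the one that holds an E2F form is Msh6, 15 bases after its start, and Msh6 had no called change. One or more of these E2F forms is found in 2.26% of 32851 promoters of this length. GGGCGG was found in all 5 and in 35.7% of all promoters, CCAAT in 3 of 5 (Msh6, Apex1 and Pms2) and in 37.4% of all, and TTTGAA in 0 of 5 and in 17.9% of all. The 5 windows were 58.3% (Pms2) to 72% (Polh) G and C, against a median of 52.7% over the 32851 promoters. The part of this in the GGGCGG count was not tested. A match is a description of these letters and not a bound site.

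Polh encodes DNA polymerase eta, the translesion enzyme behind most mutations at A and T (chromosome 17, 46171355 to 46202641, minus strand). Controls 1, 2 and 3 held 226, 320 and 298 adjusted reads, and severe asthma 1, 2 and 3 held 567, 599 and 661. Every severe asthma library lay above every control library. The level rose from 281 ± 49.2 to 609 ± 47.5 (SD, n = 3), a log2 fold change of 1.12 (SE 0.143, 95% interval 0.79 to 1.45, adjusted p = 0.00189). Its adjusted p ran from 3.28e-08 to 0.0334 over the alternatives. The other Polh transcript in the table had a log2 difference of 1.07, and the authors' deposited table of called genes lists Polh at 1.07 on the log2 scale (q-value 9.45e-05).

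Exo1 encodes the exonuclease that opens the gap polymerase eta fills (chromosome 1, 175880768 to 175911396, plus strand). It was the rarest of the 7, with 17.7, 38.01 and 33.2 in control and 76.3, 62.0 and 100.2 in severe asthma. Its lowest value was in control 1, and the groups did not overlap. The rise was from 29.6 ± 10.6 to 79.5 ± 19.3 (SD, n = 3), with a log2 fold change of 1.44 (SE 0.36, 95% interval 0.60 to 2.27, adjusted p = 0.0193). Leaving out any 1 severe asthma library ended the limma call (adjusted p = 0.0512, 0.0533 and 0.0871 without severe asthma 1, 2 and 3), and so did dropping the filter on low values (0.0819). The 3 Exo1 transcripts had log2 differences of 1.44 to 1.78. The authors' deposited table of called genes lists Exo1 at 1.48 on the log2 scale (q-value 0.00169).

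Ung encodes the glycosylase that removes uracil from DNA (chromosome 5, 114130366 to 114139321, plus strand). Its control values were 101, 125 and 83.6 and its severe asthma values 221, 161 and 187. The nearest values of the groups were control 2 and severe asthma 2. Ung rose from 103 ± 20.8 to 190 ± 30.3 (SD, n = 3), with a log2 fold change of 0.88 (SE 0.208, 95% interval 0.40 to 1.36, adjusted p = 0.016). The limma call was lost without severe asthma 1 (log2 fold change 0.76, adjusted p = 0.058), without severe asthma 3 (adjusted p = 0.0655) and with no filter on low values (0.0711). Its 3 transcripts had log2 differences of 0.88 to 1.04. The authors' deposited table of transcripts gives this Ung transcript 0.876 on the log2 scale (q-value 0.0379), and the gene is not listed in their table of called genes. The RefSeq span of Ung shares 868 bases with that of Alkbh2, while exons of 0 other genes overlap its exons in GENCODE M21. Use of strand in counting is not given in the sources used here, so any shared reads cannot be told apart.

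Apex1 encodes the main abasic-site endonuclease (chromosome 14, 50924949 to 50927188, plus strand). It held 452, 608 and 614 in control and 800.2, 747 and 727 in severe asthma. Control 1 was the lowest library by far, and the other 2 controls were closer to the severe asthma values. Apex1 rose from 558 ± 91.7 to 758 ± 37.7 (SD, n = 3), with a log2 fold change of 0.45 (SE 0.127, 95% interval 0.16 to 0.75, adjusted p = 0.0277). The call held with DESeq2 (log2 fold change 0.36, adjusted p = 0.0453) and was lost in other fits: the adjusted p was 0.051 with edgeR and TMM factors, 0.0533 with RLE factors in place of TMM, 0.0545 with limma-voom, 0.0945 with scaling by total reads alone and 0.118 with no filter. It was lost without any 1 severe asthma library as well (adjusted p 0.0762 to 0.0898, limma), and the authors' deposited table gives it a q-value of 0.0807. In GENCODE M21, exons of Pip4p1 on the minus strand overlap 61.7% of the exon bases of Apex1, while the RefSeq spans of both genes are 26 bases apart. Pip4p1 stood at 1854 ± 242 in control and 1715 ± 181 in severe asthma (log2 fold change -0.11, adjusted p = 0.485 with limma), so reads counted across both genes would make the Apex1 values uncertain.

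Apex2 encodes the second abasic-site endonuclease (chromosome X, 150426974 to 150588206, minus strand). Work on mouse germinal centres has described its product as abundant there and that of Apex1 as low. The values here are RNA of bulk lung B cell libraries, so measure and cells differ from that work. Apex2 held 135, 162 and 162 in control and 149, 179 and 182 in severe asthma, and the groups overlapped. With 153 ± 15.8 and 170.0 ± 17.9 (SD, n = 3), the log2 difference of Apex2 came to 0.15 (SE 0.159, adjusted p = 0.488, limma), and the 95% interval of -0.22 to 0.52 leaves room for rises and small falls. Its 5 transcripts had log2 differences of 0.05 to 0.15. Its RefSeq span holds or touches other genes, Alas2 and Tmem29 among them. In GENCODE M21 its exons share 311 bases with Alas2 (3.56% of its exon bases) and 123 with Pfkfb1 (1.41%), so reads may be shared there.

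The Apex2 to Apex1 ratio within each library was computed, since it needs no scaling between libraries. The log2 ratio was -1.74, -1.90 and -1.92 in control and -2.41, -2.06 and -2.00 in severe asthma. All 3 severe asthma values lay below all 3 control values. The difference of -0.30 had an exact two-sided permutation p of 0.1, the smallest that 3 against 3 libraries allow, and 0.167 after adjustment over 10 ratios, so this design could not pass the threshold. The difference was -0.17 without severe asthma 1 and -0.12 without both libraries numbered 1.

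Msh6 encodes the subunit that lets the mismatch receptor bind a uracil-guanine pair (chromosome 17, 87975050 to 87990892, plus strand). It held 1160, 1397 and 1419 in control and 1305, 1257 and 1397 in severe asthma. The severe asthma values lay inside the control range. The means were 1325 ± 144 and 1320 ± 71.1 (SD, n = 3), with a log2 fold change of -0.00179 (SE 0.0946, adjusted p = 0.99, limma). The 95% interval of -0.22 to 0.22 on the log2 scale runs from 0.858 to 1.16 as a fold, so a change of the size of Polh lies outside it. The sign of this small difference turned under 4 of 19 alternatives. Msh6 has 1 transcript in the table and shares 34 exon bases with Fbxo11.

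Pms2 encodes a nicking subunit of mismatch repair (chromosome 5, 143909901 to 143972745, plus strand). It held 378, 428 and 409 in control and 476, 506 and 514 in severe asthma. The groups did not overlap, and their spread was small. Pms2 rose from 405 ± 25.1 to 499 ± 19.9 (SD, n = 3), with a log2 fold change of 0.30 (SE 0.0896, 95% interval 0.09 to 0.51, adjusted p = 0.0346). This was the weakest of the 5 calls. It was lost with edgeR and TMM factors (adjusted p = 0.0677), edgeR and RLE factors (0.0794), DESeq2 (0.155), limma-voom (0.0717), total reads alone (0.194) and no filter (0.0742), without control 3 (0.0838) and without any 1 severe asthma library (0.0625 to 0.126). The authors' deposited table gives it a q-value of 0.37. Its 8 transcripts had log2 differences of 0.17 to 0.32. In GENCODE M21 its exons share 394 bases with Gm42421 (4.85% of its exon bases) and 85 with Rsph10b (1.05%), both on the same strand. Its RefSeq span overlaps Gm17135, so reads may be shared at these places.

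**Figure D2:**
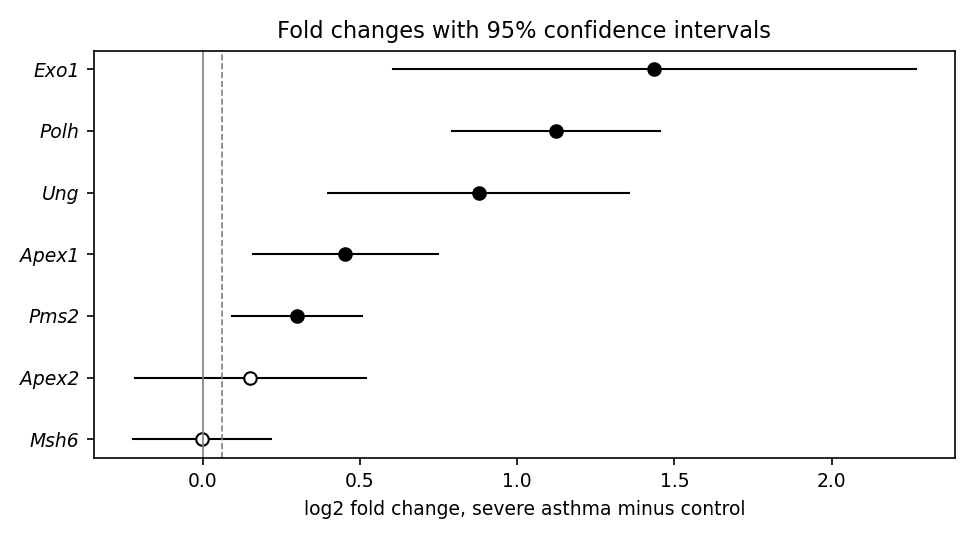
Log2 fold change of each of the 7 genes, severe asthma minus control (points), with its 95% confidence interval from limma (lines). Filled points passed the adjusted p threshold and open points did not, and the dashed line marks 0.06, the median of all genes tested.

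**Figure D3:**
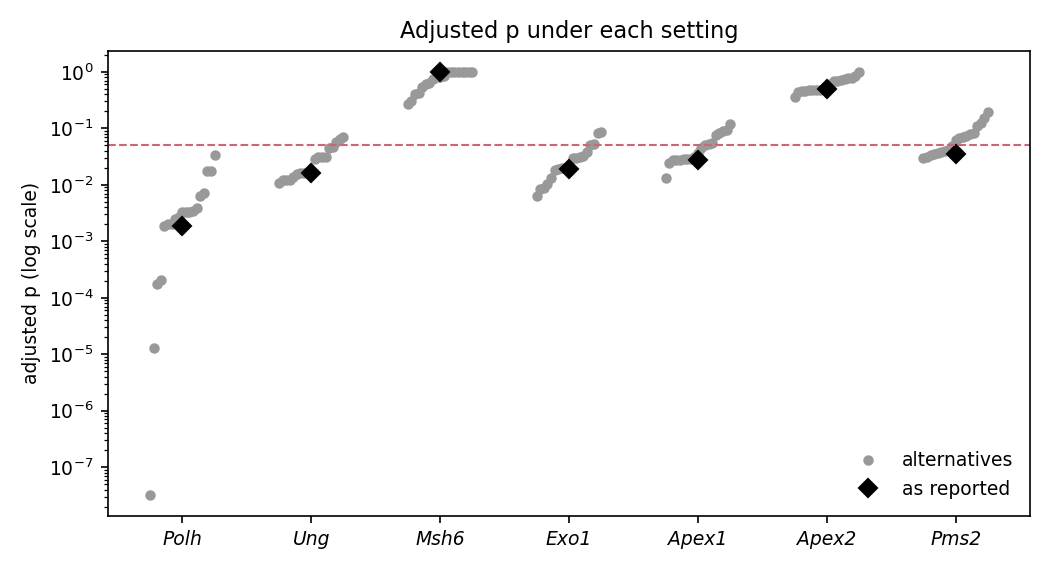
Adjusted p of each gene (vertical axis, log scale) as reported (black diamond) and under each alternative setting that gave one (grey points, in rising order), with the threshold of 0.05 as a dashed line. The points of Polh all lie under the line, those of Msh6 and Apex2 all above it, and those of the other 4 genes cross it.

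Per kilobase of transcript, with GENCODE M21 lengths of the matching transcript, Apex1 and Msh6 had the highest levels in control, at 450 and 312 reads per kilobase. Polh (86.9), Apex2 (78.9) and Pms2 (74.0) followed with overlapping ranges over libraries, then Ung (48.4) and Exo1 (3.8). In severe asthma the order was Apex1 (612), Msh6 (311) and Polh (188). Pms2 (91.0), Ung (88.8) and Apex2 (87.5) came next with overlapping ranges, and Exo1 (10.2) was again the lowest. Polh, which shared its control range with Apex2 and Pms2, ran from 175 to 204 reads per kilobase in severe asthma, clear of their 78.2 to 93.8. For Apex2 a transcript other than the one tested supplied the length and level.

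Genes of dividing cells rose too. Among 20 for the replicative helicase and proliferation, 19 rose and 1 (Cdt1, log2 fold change -0.31) fell, with a median log2 fold change of 1.85. Mcm6 and Mcm3, helicase subunits that unwind replicating DNA, rose from 1030 ± 14.1 to 2209 ± 108 and from 844 ± 86.6 to 2072 ± 112 (SD, n = 3; log2 differences 1.10 and 1.30, adjusted p = 0.000216 and 0.000263). Birc5, the mitotic protein survivin, had a log2 rise of 3.37 (adjusted p = 0.000291).

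Each of the 7 genes was set against the mean log2 level of Mcm2 to Mcm7, which was 1.11 higher in severe asthma. Mcm2 to Mcm7 rose by 0.82 to 1.30 in log2, below the median of 1.85 of the proliferation list. The ratios therefore describe the helicase and not that whole list. The groups overlapped for Polh: its log2 ratio was -1.85, -1.48 and -1.65 in control and -1.72, -1.59 and -1.62 in severe asthma, a difference of 0.01 whose sign turned under 4 of 11 alternatives. The groups overlapped for Ung (difference -0.23, exact p = 0.3) and Exo1 (0.32, exact p = 0.5) as well. With 1 library left out these differences ran from -0.42 (without control 3) to -0.097 (without control 2) for Ung and from 0.055 (without control 1) to 0.52 (without control 2) for Exo1. The second transcript of Exo1 gave 0.67, with an adjusted permutation p of 0.143 against 0.556 for the transcript used. In that setting Msh6 had 0.143 too, so the overlap of the groups for Exo1 depends on the transcript. Msh6 moved from 0.51, 0.65 and 0.60 to -0.52, -0.52 and -0.54, a difference of -1.11. Apex2 (-0.96), Pms2 (-0.81) and Apex1 (-0.66) were also lower against the helicase in every severe asthma library than in every control library. For these 4 genes the exact two-sided permutation p was 0.1, the smallest 3 against 3 libraries allow, and 0.167 after adjustment over 10 ratios, so no ratio passed the threshold.

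**Figure D4:**
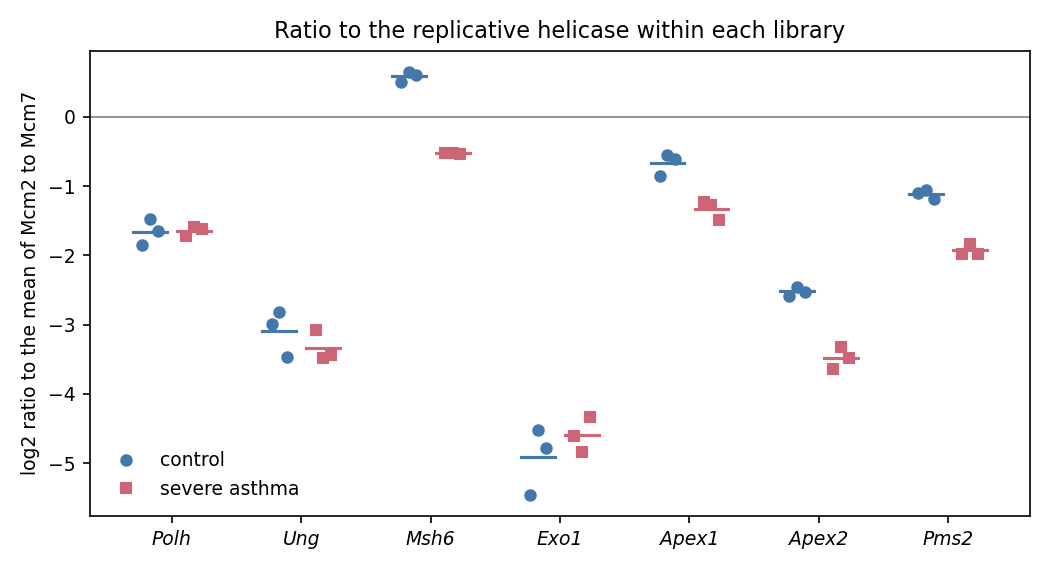
Log2 ratio of each gene to the mean of Mcm2 to Mcm7 within each library (vertical axis), in control (blue circles) and severe asthma (red squares), with a bar at each group's mean. The groups overlap for Polh, Ung and Exo1, and the severe asthma libraries lie lower for Msh6, Apex1, Apex2 and Pms2.

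In the limma fit, other genes of the same pathways rose more often than they fell, as did all genes tested (20.7% rose and 14.4% fell). Of 18 further genes of mismatch repair that were tested, 12 rose and 0 fell, with a median log2 fold change of 0.48. Lig1, the ligase that seals repaired and replicated strands, rose from 444 ± 31.2 to 1123 ± 149 (SD, n = 3, log2 difference 1.33, adjusted p = 0.000453). Pold4, a small subunit of polymerase delta, rose by 0.80 and Rpa1, which coats single-stranded DNA, by 0.60 in log2 (adjusted p = 0.0017 each). Besides Msh3 (log2 fold change 0.36), the genes that rose were Pcna, Rfc1 to Rfc5, Rpa1, Rpa3, Pold2, Pold4 and Lig1, which also serve replication. Mlh3 (0.02), Pms1 (0.10) and Msh5 (0.15) were not called, nor were Rpa2, Pold1 and Pold3. With no filter on low values 7 of the 18 passed.

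In base excision repair, 10 of 22 genes rose and 0 fell, with a median log2 fold change of 0.33. Neil3, a glycosylase of replicating cells, held 1.95, 5.001 and 9.33 in control and 115, 102 and 98.2 in severe asthma. Its log2 fold change of 4.22 (adjusted p = 0.00126) was the largest in this list. Hmces, which shields abasic sites in single-stranded DNA, rose from 556 ± 46.0 to 1173 ± 188 (SD, n = 3, log2 difference 1.07, adjusted p = 0.00137), and Fen1, the flap endonuclease, by a log2 difference of 0.59 (adjusted p = 0.00185). The count that rose was 6 without severe asthma 3 and 5 with no filter on low values.

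Of 20 translesion and damage tolerance genes tested, 5 rose and 1 fell, and their median log2 fold change was 0.27; the share that rose is near the 20.7% of all genes. The median was 0.16 without control 1. Pcna, the sliding clamp, Usp1, which takes ubiquitin off it, and Rev1, a deoxycytidyl transferase and scaffold for translesion polymerases, rose by 0.49, 0.44 and 0.49 in log2 (adjusted p = 0.00223, 0.00257 and 0.00743). Pcna is also among the mismatch repair genes above. Wdr48 was the gene that fell (log2 fold change -0.30, adjusted p = 0.025). No gene of the list fell without control 3, without any 1 severe asthma library or with no filter on low values. Polq rose as well (log2 fold change 0.60), while Rev3l, Poli, Polk, Poln, Polm and Primpol were not called. Rev1 missed the threshold when rarely read genes stayed in (adjusted p = 0.0534), where 3 genes of the list rose.

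Of 26 genes tied to the targeting and stability of AID that were tested, 9 rose and 1 fell, with a median log2 fold change of 0.16. Gadd45a, a stress-response gene, fell (853 ± 39.5 in control, 673 ± 23.9 in severe asthma, SD, n = 3) with a log2 difference of -0.34 and an adjusted p of 0.0124, and did not pass once severe asthma 3 was left out (adjusted p = 0.0615). Exosc3, a subunit of the RNA exosome, and Hsp90ab1, a chaperone, rose by 0.41 and 0.51 (adjusted p = 0.0165 and 0.0167). Both calls were lost with total reads alone (adjusted p = 0.0549 each) and with no filter (0.0664 and 0.084), that of Exosc3 also without severe asthma 2 (0.0732) and that of Hsp90ab1 without control 3 (0.0578). The number that rose in this list was 1 with total reads alone, 4 with DESeq2 or edgeR and RLE factors, 5 with edgeR and TMM factors, limma-voom or without severe asthma 1, 1 without control 3 or without severe asthma 2, 2 without severe asthma 3 and 0 with no filter. In the same list 2 fell with total reads alone and 1 with no filter, so falls outnumbered rises there. Without control 1, 8 rose and 3 fell.

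Of the 3 APOBEC family genes tested, Apobec1 rose from 1091 ± 184 to 1539 ± 92.5 (SD, n = 3, log2 difference 0.51, adjusted p = 0.0186). That call was lost with total reads alone (adjusted p = 0.0625), with no filter (0.0985) and without severe asthma 2 (0.0632) or 3 (0.0779). Apobec3, the most abundant of them, stood at 6535 ± 1165 and 7553 ± 404 (log2 fold change 0.22, adjusted p = 0.205), and Apobec2 at 15.7 ± 4.07 and 18.0 ± 4.48 (0.18, adjusted p = 0.742).

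Several germinal centre markers, which label the B cells in which hypermutation takes place, were higher in the same libraries. Of 15 tested, 9 rose and 0 fell (20.7% and 14.4% of all genes), with a median log2 fold change of 0.67. The other 6 were not called, and the log2 fold changes of the list ran from -1.23 to 6.40. With total reads alone, DESeq2, the replicate block or without control 2, 1 marker fell. Without control 1 the median was 1.05 and 11 rose, and 7 rose without severe asthma 2 or 3. Mybl1 (log2 fold change 4.73), Nuggc (4.31) and Mef2b (4.30) had the smallest p-values of this list (adjusted p 7.99e-05 to 0.000216). Each of them changed by more on the log2 scale than any of the 7 genes. The part of a larger share of germinal centre cells in the values of the 7 genes was not tested.

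**Figure D5:**
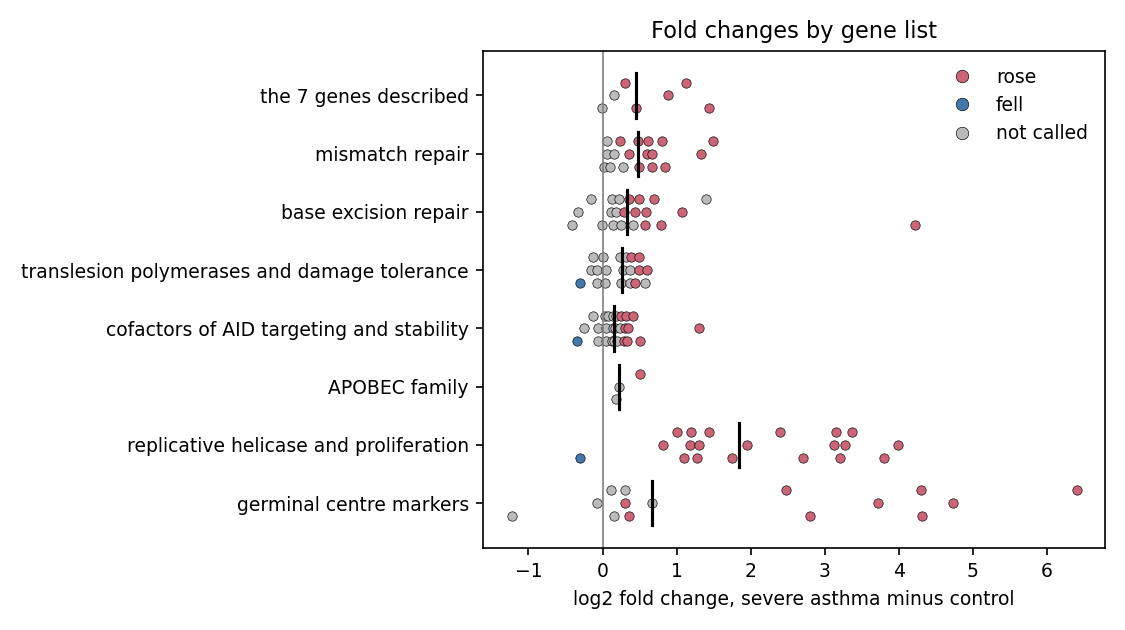
Log2 fold change, severe asthma minus control, of the 7 genes and of the tested genes of each list (points), with a bar at each list's median. Red points rose, blue points fell and grey points were not called, and the proliferation genes have the highest median, at 1.85.

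The authors' deposited GO term table tests 2586 called genes out of 23174. In it, somatic hypermutation of immunoglobulin genes held 3 called genes of 14, Exo1 among them, with a q-value of 0.322. The GO term mismatch repair held 2 of 25 (q-value 0.883) and base-excision repair 4 of 38 (q-value 0.769) in the same deposited table. Both shares lie below that of all genes. Among the authors' KEGG terms, mismatch repair held 3 of 22 (q-value 0.909) and base excision repair 3 of 36 (unadjusted p = 0.859 in their term test). There 1153 of 8980 genes were called.

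As a description, the gene most like each of the 7 over the 6 libraries, out of 11352 with a mean of at least 50, was Kpnb1 for Polh, Cox18 for Ung, Pds5b for Msh6, Cic for Exo1, Nrip2 for Apex1, Prkar1a for Apex2 and Hnrnpf for Pms2. Pearson's r on log2 values ran from 0.989 to 0.999 and takes in the difference between the groups, so it is the highest of many values over few libraries. The most like genes need not change as much: Kpnb1 had a log2 fold change of 0.46 and Cic of 0.22, against 1.12 for Polh and 1.44 for Exo1.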

How the data were processed

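RNA of 6 libraries of lung B cells was analysed, 3 per group. Per the submitters' processing notes, HISAT2 2.1.0, HTSeq 0.11.2 and the build mm10 were used, with no role or order given. The authors deposited a library-size-adjusted signal per mRNA transcript and library, with log2 fold changes, p-values and q-values of their own per the file headers, and the test behind these is not given in the sources used here. The quantile adjustment of edgeR (dispersion 0.0474) was inverted, with rounding to whole reads. When adjusted again, these reads matched the deposited value within 0.05 reads for 100% of the 499202 values above 0.

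Limma 3.58.1 (trend, robust) was run on log2(value + 1) over genes whose mean reached 1, in R 4.3.3, with Benjamini-Hochberg adjustment. Recovered reads were tested with edgeR 4.0.16 (quasi-likelihood), DESeq2 1.42.0 and limma-voom as alternatives. Ratios were compared by exact permutation. Same-numbered libraries of both groups deviated from their group means together (r = 0.637, 0.288 and 0.352 for numbers 1, 2 and 3 over 11362 genes), and a fit with the number as a block was made. Differently numbered libraries 2 and 3 deviated together as much (control 2 with severe asthma 3, r = 0.406, and control 3 with severe asthma 2, r = 0.403), so within these the number itself does not stand out. Deviations from a mean of 3 libraries cancel out within each group, so these r values are not independent of that for number 1. The 7 genes and the lists were chosen with earlier results of these data known. Named were the 7 genes, the 3 genes of each list with the smallest p past the threshold (or the 2 most abundant, where fewer than 2 passed) and the gene most like each. Further genes of the mismatch repair and damage tolerance lists are named to show which rose, fell or were not called. Marker lists are given by their sums and counts. Of the lists, 3 genes, and 2 ratios are not reported here, a choice made after their values were seen, and the adjustment over 10 ratios keeps them. Gene spans and promoters are from RefSeq (GRCm38.p6), exon overlaps and lengths from GENCODE M21.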

Additional observations from a re-analysis of the deposited data

How the results depend on the processing

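Of 19 alternatives, 1 of them (leaving out both libraries numbered 1) chosen after seeing the data, 11 kept the count of called genes among the 7 within 1.5 times of 5. It was 1 with no filter on low values and 3 with total reads alone, edgeR with TMM factors, edgeR with RLE factors and limma-voom. With no filter, which takes the genes tested from 15759 to 21774, Ung (log2 fold change 0.88), Exo1 (1.44), Apex1 (0.45) and Pms2 (0.30) lost their calls. Apex1 lost it at 0.31 with total reads alone, 0.38 with TMM, 0.36 with RLE and 0.39 with limma-voom, and Pms2 at 0.15, 0.24, 0.21 and 0.24 there and at 0.21 with DESeq2. The cause was not tested.

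Leaving out 1 library gave log2 fold changes of 0.97 to 1.22 for Polh, 0.74 to 1.02 for Ung, 1.11 to 1.65 for Exo1, 0.31 to 0.53 for Apex1, 0.25 to 0.34 for Pms2 and -0.0949 to 0.0503 for Msh6, and 1 to 5 called genes among the 7 (1 without severe asthma 1 or 3, 2 without severe asthma 2). Over all genes 5525 were called, 2303 to 5645 with 1 library left out (2303 without severe asthma 2, 2409 without severe asthma 3) and 1699 with no filter. The group difference in the log2 ratio of Polh to the helicase ran from -0.0837 to 0.103 with 1 library left out, and was -0.036 with the second transcript and -0.0443 without both libraries numbered 1. Scaling by total reads alone moved the all-gene median (log2) from 0.06 to -0.08, and list medians to 0.18 for base excision repair, 0.12 for translesion, 0.012 for AID targeting and 0.077 for the APOBEC family. Recovered reads with edgeR and TMM factors gave 2546 genes that rose and 2401 that fell. With the replicate block 5 of the 7 were called, and no call among them changed. Exo1 had 18 to 101 recovered reads per library.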
